A study of Rattus norvegicus with 6 samples.

Results

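The milk protein genes examined here were the 5 caseins Csn1s1, Csn1s2a, Csn1s2b, Csn2 and Csn3, the whey protein genes Wap and Lalba, and Glycam1. They were found by gene symbol, and all 8 were present once among the 26195 named rows of the read count table and passed the filter on low counts. Bulk RNA-seq libraries came from 6 mammary tumors of F344 rats, an inbred strain, with 1 library per tumor. Tumors 102, 107 and 116 came from 3 older rats, and tumors 157, 158 and 167 from 3 younger rats. Every rat carried a subcutaneous pellet with 50 mg of MPA (medroxyprogesterone acetate, a progestin) made to release for 90 days, and received the carcinogen DMBA once by gavage at 65 mg per kg. The rats were 4 months (younger) or 21 to 23 months old (older) at the time of DMBA. The younger rats are described as virgin, whereas the breeding history of the older rats is not given in the sources used here. The 3 younger tumors were all the tumors that the younger cohort developed, and the older tumors were chosen for having enough tissue.

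Milk proteins are made by the luminal alveolar cells of the mammary gland, and their genes are classical targets of prolactin signaling through the receptor Prlr, the kinase JAK2 and the transcription factor STAT5. Caseins assemble with calcium phosphate into micelles, which κ-casein (Csn3) stabilizes at the surface. The whey fraction holds the whey acidic protein Wap and α-lactalbumin (Lalba), the subunit that turns a Golgi galactosyltransferase into lactose synthase. Glycam1 encodes a mucin-like glycoprotein of milk that is also made by the high endothelial venules of lymph nodes.

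The bases before the start of the casein genes are shown because STAT proteins bind the spaced palindrome TTCNNNGAA, the best known hormone response element of these genes. The sequences below are from RefSeq (GRCr8), are written 5′ to 3′ on the strand of the gene, and carry the palindrome in capitals. For the caseins they run from 150 to 51 bases before the annotated start, and for Glycam1 they are the 100 bases that begin 200 bases before it. They lie at chr14:20638900-20638999 (minus strand, Csn1s1), chr14:20574522-20574621 (minus, Csn1s2a), chr14:20545669-20545768 (minus, Csn1s2b), chr14:20601674-20601773 (plus, Csn2), chr14:20439881-20439980 (minus, Csn3) and chr7:136561400-136561499 (minus, Glycam1).
Csn1s1: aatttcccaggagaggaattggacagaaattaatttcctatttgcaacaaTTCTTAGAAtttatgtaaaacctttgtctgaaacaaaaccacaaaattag
Csn1s2a: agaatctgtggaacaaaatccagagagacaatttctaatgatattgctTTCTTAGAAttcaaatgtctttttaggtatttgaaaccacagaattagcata
Csn1s2b: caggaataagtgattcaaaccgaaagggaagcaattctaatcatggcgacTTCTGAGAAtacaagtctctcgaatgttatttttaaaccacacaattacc
Csn2: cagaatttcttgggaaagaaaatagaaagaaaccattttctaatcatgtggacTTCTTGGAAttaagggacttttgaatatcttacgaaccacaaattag
Csn3: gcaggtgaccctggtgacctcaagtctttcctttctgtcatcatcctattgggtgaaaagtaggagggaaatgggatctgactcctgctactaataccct
Glycam1: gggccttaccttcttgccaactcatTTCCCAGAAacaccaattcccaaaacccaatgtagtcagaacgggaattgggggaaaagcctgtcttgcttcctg

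Within 250 bases before the start, the palindrome, which reads the same on both strands, was found in 5 of the 8 genes and in 7.67% of the 33469 rat promoters of the same length. In Csn1s1, Csn1s2a, Csn1s2b and Csn2 its first base lay 100, 102, 100 and 97 bases before the start, a position seen in 0.161% of all promoters, and this interval was set after the matches had been seen. In Glycam1 it lay 175 bases before the start, and Csn3, Wap and Lalba held no match in this window. The letters AGAACA, part of the glucocorticoid response element, searched on both strands, was found in Csn1s2a, Csn1s2b and Csn3 and in 17.5% of all promoters. The full palindrome of NF1 (0.0359% of all promoters) and the letters TATAAA on either strand (12.9%) were found in 0 of the 8. A match describes letters only and is not evidence of binding in these tumors.

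The casein genes lie together on chromosome 14. In the RefSeq gene order Csn3 is followed by Fdcsp, Odam and Prr27, then by Csn1s2b, Csn1s2a, Stath, Csn2 and Csn1s1. Csn2 is the only casein gene of this cluster on the plus strand, and it lies between Csn1s2a and Csn1s1. Wap is on chromosome 14 as well but outside the cluster, and Lalba and Glycam1 are on chromosome 7.

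Milk protein genes took a large and uneven part of the libraries. Of all counts, the 8 genes took 13.5% in tumor 102 (95% Wilson interval 13.4 to 13.5), 11.8% in tumor 107 (11.7 to 11.8) and 4.32% in tumor 116 (4.30 to 4.34). In the younger group they took 2.91% in tumor 157 (2.89 to 2.92), 14.9% in tumor 158 (14.8 to 14.9) and 0.611% in tumor 167 (0.603 to 0.619). Totals ran from 3508571 to 6525830 counts, and the intervals cover counting error only. The highest and the lowest tumor, 24.3-fold apart, were both from younger rats. The shares had a mean of 9.85% ± 4.86 (SD, n = 3) in the older group and of 6.12% ± 7.65 (SD, n = 3) in the younger group, and the difference of 3.73 percentage points was smaller than the spread in either group. The caseins made up between 97.1% and 99.2% of the milk protein counts in every tumor.

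**Figure D1:**
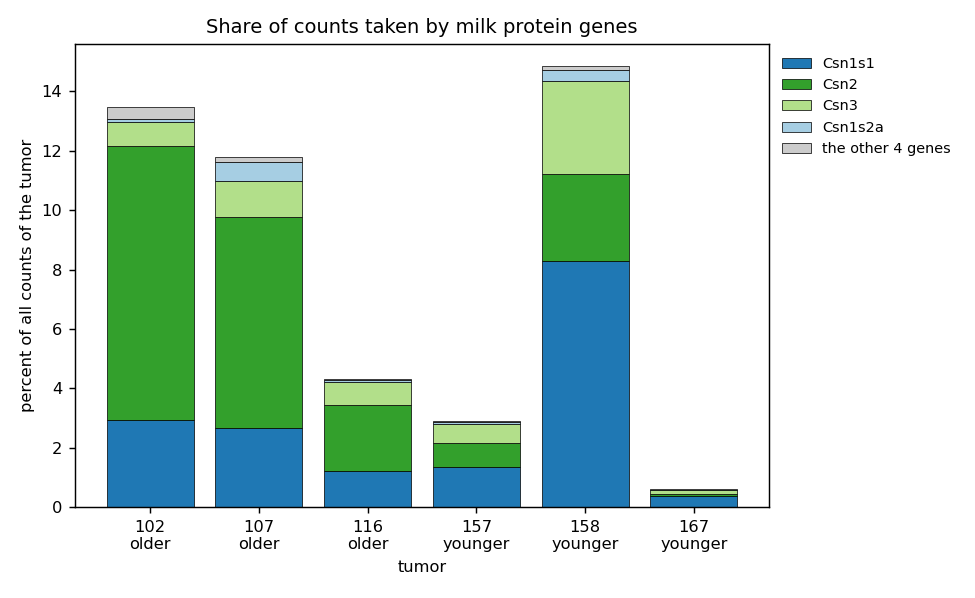
Percent of all counts taken by milk protein genes in each of the 6 tumors, stacked by gene, with Csn1s2b, Wap, Lalba and Glycam1 drawn together. Csn2 is the largest block in the 3 older tumors (102, 107 and 116) and Csn1s1 in the 3 younger tumors (157, 158 and 167), while the total runs from 0.611% in tumor 167 to 14.9% in tumor 158.

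Levels below are TMM-scaled CPM, which set the counts of a gene against the scaled size of its library, and they compare the same gene between tumors, since a count also depends on transcript length. Csn2 (β-casein) stood at 110874 CPM in tumor 102, 76230.5 in tumor 107 and 20228 in tumor 116, and at 7557, 34352 and 593 CPM in the younger tumors 157, 158 and 167. Tumors 102 and 107 lay above every younger tumor, and tumor 116 lay between younger tumors. Its log2 fold change, older over younger, was 2.29 ± 1.33 (SE, edgeR adjusted p = 0.748). Here and below this p comes from the quasi-likelihood F test, adjusted by Benjamini-Hochberg over all genes tested. In tumor 102 no other named row had as many counts as Csn2, and in tumor 167 it ranked 98.

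Csn1s1 (αs1-casein), a calcium-binding casein, stood at 35354, 28820 and 11239 CPM in tumors 102, 107 and 116, and at 12516, 97389 and 3541 CPM in tumors 157, 158 and 167. The younger tumors enclosed all older ones, and the log2 fold change was -0.59 ± 1.15 (SE, edgeR adjusted p = 0.945). Csn3 stood at 9575, 12684 and 7193 CPM in the older tumors and at 5971, 36830 and 1370 CPM in the younger ones, with a log2 fold change of -0.58 ± 1.04 (SE, edgeR adjusted p = 0.941). The older tumors differed among themselves by 1.76-fold in Csn3, the narrowest range of the 8 genes in that group, and the younger by 26.9-fold.

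The α-s2-like caseins are a pair of neighboring genes that arose by duplication, and they were counted apart here. Csn1s2a stood at 1355, 7083 and 514 CPM in tumors 102, 107 and 116 and at 746, 4385 and 38.1 CPM in tumors 157, 158 and 167. Tumor 107 was the highest, the only gene of the 8 for which this was so. Csn1s2b stood at 69.6, 33.04 and 25.7 CPM in the older tumors and at 16.4, 261 and 8.60 CPM in the younger tumors. Their log2 fold changes were 0.79 ± 1.44 for Csn1s2a (SE, edgeR adjusted p = 0.942) and -1.17 ± 1.15 for Csn1s2b (SE, edgeR adjusted p = 0.881).

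Wap, whose product carries the four-disulfide core of protease inhibitors, stood at 580, 142 and 18.3 CPM in tumors 102, 107 and 116 and at 67.8, 503 and 2.70 CPM in tumors 157, 158 and 167. Tumor 167 held 11 reads of Wap, so that its value there rests on few counts. The log2 fold change was 0.37 ± 1.54 (SE, edgeR adjusted p = 0.979). Lalba stood at 16.1, 269 and 236 CPM in the older tumors and at 146, 801 and 89.5 CPM in the younger tumors (log2 fold change -0.99 ± 1.07 SE, edgeR adjusted p = 0.899). Lalba was lowest in tumor 102, with 47 reads, although that tumor had the highest Csn2, Wap and Glycam1. Tumor 167 was the lowest for the other 7 genes.

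Glycam1 stood at 4052, 1153 and 86.3 CPM in tumors 102, 107 and 116 and at 32.2, 45.9 and 12.8 CPM in tumors 157, 158 and 167. Every older tumor lay above every younger one, but the older values spread 46.9-fold and tumor 116 lay closer to the younger tumors than to tumor 102. The means were 1764 ± 2052 CPM (SD, n = 3) in older and 30.3 ± 16.7 CPM (SD, n = 3) in younger tumors, a log2 fold change of 5.86 ± 1.33 (SE, edgeR adjusted p = 0.29) that was 4.33 without tumor 102. DESeq2's Wald test called it with an adjusted p of 6.22e-07. The other 14 settings gave adjusted p-values between 0.12 and 0.732, so that the call rests on the choice of test. Markers of lymph node B cells and high endothelial venules summed to between 3.59 and 24.0 CPM in older and between 2.46 and 13.2 CPM in younger tumors. Of these 11 markers, 10 were under 3 CPM in every tumor, and Chst4, which sulfates Glycam1 in these venules, was among the 3 at 0 throughout. The exception was Cxcl13, at 22.3, 8.60 and 1.40 CPM in tumors 102, 107 and 116 and at 10.7, 10.1 and 1.23 CPM in tumors 157, 158 and 167.

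**Figure D2:**
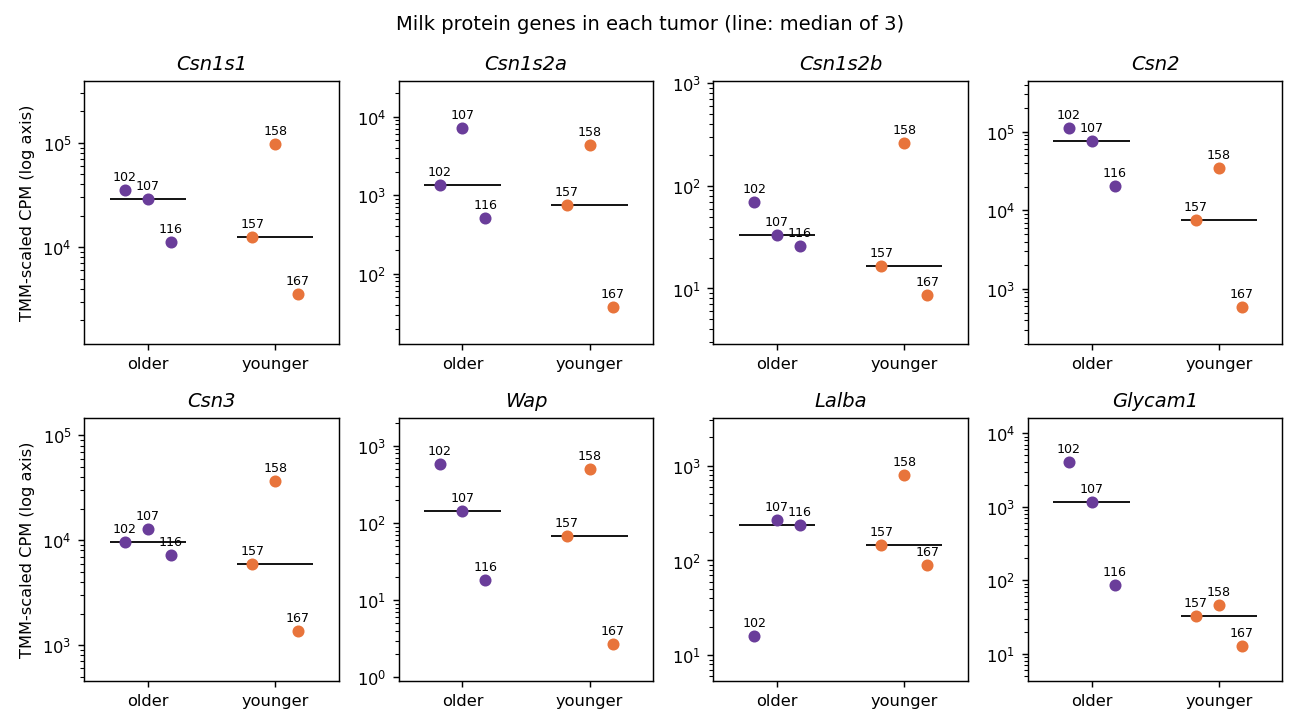
TMM-scaled CPM of each milk protein gene on a log axis, with 1 point per tumor, labelled with its tumor number, and a line at the median of the 3 tumors of each age group. Groups overlap for every gene except Glycam1, and tumor 158 lies far above tumors 157 and 167 for the caseins, Wap and Lalba.

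Between the age groups 0 of the 8 genes passed an adjusted p of 0.05 with edgeR, where 0% of the 13139 genes tested did. At an unadjusted p under 0.05 there was 1 gene, Glycam1, against 8.59% of all genes tested. It was also the gene higher in every older tumor (1 of 8, against 6.51% of all genes tested), and 0 of 8 were lower in every older tumor (5.58%). DESeq2 called 1 of 8 and 2.48% of all genes, where genes to which it gave no adjusted p, Csn1s2b among them, count as not called. The direction depended on how tumors were averaged. edgeR's log2 fold changes, which compare mean levels, were above 0 for 4 of 8 genes (49.6% of all genes tested) with a median of -0.11, while that of all genes tested was -0.00378. Differences of mean log2 CPM, which give the high tumor 158 less weight, were above 0 for 7 of 8 with a median of 0.90. The share over all genes is not given here for that measure. In limma-voom, which also averages log values, the median was 0.87 for the 8 genes and -0.0086 for all genes tested. Without tumor 158 edgeR's median log2 fold change was 2.28, beside 0.0172 for all genes tested. In that fit Csn1s2b, Csn2, Csn3 and Glycam1 were higher in every older tumor (4 of 8, against 12.7% of all genes tested). In that fit 3 of 8 had an unadjusted p under 0.05 (8.83% of all genes) and 0 of 8 passed the threshold. Without tumor 116, 2 of 8 were higher in every older tumor (Csn2 and Glycam1), against 13.2% of all genes. Leaving out the low tumor 167 turned the median the other way, to -0.68, with log2 fold changes above 0 for 3 of 8. The median of all genes tested was 0.0247 in that fit.

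The milk protein genes varied more between tumors than most genes did. The SD of log2 CPM over the 6 tumors lay between 1.55 for Csn3 and 3.22 for Glycam1, where the median of all genes tested was 0.45, and each of the 8 had a larger SD than at least 96.96% of the genes tested. Levels also did not vary as a block. Csn1s1 and Csn3 had the most similar profiles, with a root mean square difference of 0.38 between their log2 CPM after centering on the mean of the 6 tumors. Csn1s1 and Csn1s2b followed at 0.46 and Csn1s2b and Csn3 at 0.63. Csn2 was farther from Csn1s1 (1.57) than from its other neighbor Csn1s2a (1.21), and Lalba and Glycam1 were farthest apart (4.06).

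The composition of the milk protein counts differed between age groups, and a ratio of 2 genes within a tumor does not depend on library scaling. Csn2 took 68.5%, 60.3% and 51.2% of the milk protein counts in tumors 102, 107 and 116, and 27.9%, 19.7% and 10.5% in tumors 157, 158 and 167. Csn1s1 took 21.8%, 22.8% and 28.4% in the older tumors and 46.3%, 55.8% and 62.6% in the younger ones. The count ratio of Csn2 to Csn1s1 was thus 3.14, 2.65 and 1.80 in tumors 102, 107 and 116 and 0.604, 0.353 and 0.167 in tumors 157, 158 and 167. On the log2 scale it averaged 1.30 ± 0.41 (SD, n = 3) and -1.60 ± 0.93 (SD, n = 3), a difference of 2.90 with no overlap. With 3 tumors against 3, a two-sided exact permutation test cannot give a p below 0.1, which is what it gave here. This ratio was singled out after its values were seen. Leaving out each tumor in turn gave differences between 2.42 and 3.34.

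The gap between the groups in this ratio was 1.58 on the log2 scale, from tumor 116 to tumor 157. Of all pairs of genes tested, 0.639% had a gap at least as large, on log2 CPM with a prior count of 2. That share is not a p-value, because this ratio had the largest gap of the 28 milk protein pairs and was singled out after its values were seen. Csn2 and Csn1s1 also varied more between tumors (SD of log2 CPM 2.75 and 1.65) than most genes tested (median 0.45). Csn2 was also higher in every older tumor relative to Csn3, with ratios of 11.6, 6.01 and 2.81 against 1.27, 0.933 and 0.433, and relative to Csn1s2b and Lalba. Relative to Csn1s2a, Wap and Glycam1, Csn2 overlapped between the groups, so that 4 of its 7 pairs were without overlap. Relative to Csn1s1, Glycam1 was higher in every older tumor as well, at 0.115, 0.0400 and 0.00768 reads per read of Csn1s1 in tumors 102, 107 and 116 and 0.00257, 0.000472 and 0.00361 in tumors 157, 158 and 167. Of the 28 pairs of milk protein genes, 8 had raw count ratios without overlap between age groups, each with Csn2 or Glycam1 in it. The number depended on the prior count added to low values, being 9 with a prior count of 0.5 and 10 with a prior count of 2, the scale on which 13.8% of all pairs of genes tested did not overlap. Pairs share genes and are not independent. The ratio of Csn3 to Csn1s1, from 0.271 in tumor 102 to 0.640 in tumor 116, and that of Csn1s2b to Csn1s1 spanned only 2.36-fold and 2.34-fold over the 6 tumors, with overlap between age groups.

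**Figure D3:**
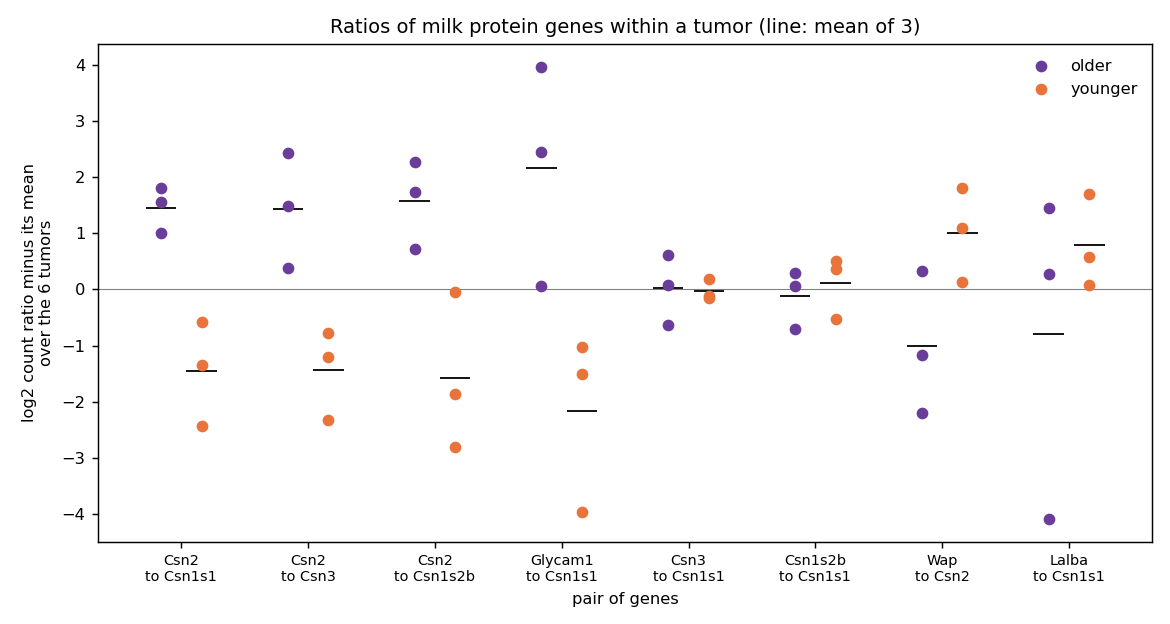
Log2 count ratio of pairs of milk protein genes within each tumor, minus the mean of that ratio over the 6 tumors, with older and younger tumors side by side and a line at the mean of 3. The groups do not overlap for the ratios of Csn2 to Csn1s1, Csn3 and Csn1s2b and for Glycam1 to Csn1s1. Csn3 to Csn1s1 and Csn1s2b to Csn1s1 stay within a narrow range. The ratio of Csn2 to Csn1s2a, which overlapped between the groups, is not drawn.

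To check the labelled tissue, luminal epithelial markers were summed, and they were detected in every tumor. They came to between 1322 and 1401 CPM in older tumors and between 1657 and 1968 CPM in younger tumors, lower in each older tumor. Relative to the mean log2 CPM of these markers, the summed milk protein CPM were higher by 10.3, 10.8 and 8.22 log2 units in tumors 102, 107 and 116 and by 7.24, 10.5 and 5.06 in tumors 157, 158 and 167, again with overlap. Tumor 102 stood apart from the other tumors in several marker lists. Its adipocyte markers summed to 309 CPM against 36.4 to 70.4 in the other tumors, its myoepithelial markers to 465 CPM against 816 to 2877, and its proliferation markers to 137 CPM against 608 to 995. Some immune markers differed between the age groups. T cell markers summed to between 16.8 and 86.4 CPM in older and between 5.22 and 8.63 CPM in younger tumors, without overlap. Cd8a alone stood at 74.2 CPM in tumor 107, and 3 of the 6 T cell markers were under 3 CPM in every tumor. The 2 tested T cell markers, Cd8a (edgeR adjusted p = 0.361) and Cd3e (edgeR adjusted p = 0.381), were higher in every older tumor, as Glycam1 was. So were 2 of 6 macrophage markers, Cd68 (edgeR adjusted p = 0.342) and Csf1r (edgeR adjusted p = 0.425). Of all genes tested 6.51% were. The other macrophage markers overlapped, with Cd14 highest in younger tumor 158 (419 CPM). The summed macrophage markers overlapped as well (338 to 373 CPM against 116 to 493). The part of these cell types in the milk protein values was not tested, and in bulk RNA fewer secretory cells and less RNA per cell cannot be told apart.

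The genes whose centered log2 CPM lay nearest to the mean profile of the 8 genes, among 10299 other genes with a mean of at least 10 CPM, were Slc28a3, Prr27, Slc1a2, Xdh, Prkaa2, Fam20c, Srebf1, Pstpip2, Tmprss4 and Folr1. Slc28a3, a nucleoside transporter, was nearest (root mean square difference 0.29), at 225, 253 and 73.4 CPM in the older tumors and 63.7, 260 and 6.39 CPM in the younger tumors. Prr27 followed (0.39), at 4884, 5705 and 2680 CPM in tumors 102, 107 and 116 and 1672, 6438 and 190.0 CPM in tumors 157, 158 and 167. Prr27 lies between Csn3 and Csn1s2b in the casein cluster. The neighboring genes Odam, at 5.10 to 19.3 CPM, and Fdcsp, under 1 CPM in every tumor, did not share its level. Xdh, xanthine oxidoreductase of the milk fat globule membrane, stood at 1157, 871 and 387 CPM in the older and at 331, 1176 and 106 CPM in the younger tumors. Fam20c is the Golgi kinase that phosphorylates caseins, and Srebf1 encodes a transcription factor of lipid synthesis.

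**Figure D4:**
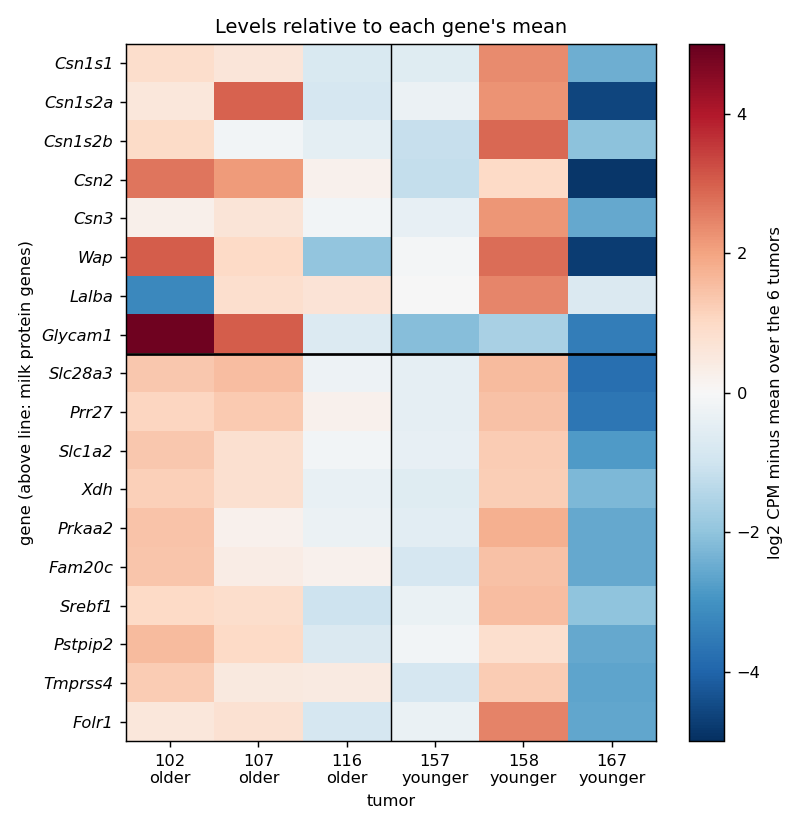
Log2 CPM of the 8 milk protein genes (above the line) and of the 10 genes with the nearest profiles (below it), each minus its own mean over the 6 tumors. Tumors 102, 107 and 158 are mostly above the mean (red) and tumor 167 is below it (blue) in every row. Lalba in tumor 102 is the most visible exception.

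The wider program of milk secretion and prolactin signaling was followed in 7 lists with 74 genes, 60 of which could be tested. Of these 60, 0 passed an adjusted p of 0.05 with edgeR (smallest 0.235), and 16 had an unadjusted p under 0.05 (8.59% of all genes tested did), 8 higher and 8 lower in older tumors. The median log2 fold change of the 60 was -0.01, beside -0.00378 for all genes tested. Of the 60, 20 were highest in tumor 158 and 27 were lowest in tumor 167, but of the 9 lactose synthesis genes 1 was highest in tumor 158 and 5 in tumor 157. DESeq2 called 9 of the 60 (2.48% of all genes tested), of which 4 were higher and 5 lower in older tumors.

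Among 9 tested genes of the milk fat globule and lipid droplet 0 passed, and 4 had log2 fold changes above 0. Btn1a1 (butyrophilin) stood at 817, 1237 and 703 CPM in the older and at 420, 2388 and 158 CPM in the younger tumors, with a log2 fold change of -0.11 ± 0.87 (SE, edgeR adjusted p = 0.987). Fabp3, a fatty acid binding protein, was higher in every older tumor, at 683, 184 and 69.0 CPM against 23.1, 53.7 and 6.14 CPM (log2 fold change 3.49 ± 1.01 SE, edgeR adjusted p = 0.359). Plin3, a coat protein of lipid droplets, was lower in every older tumor (log2 fold change -0.35 ± 0.21 SE, edgeR adjusted p = 0.758).

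Of the 9 lactose synthesis genes 0 passed, 4 had an unadjusted p under 0.05 (8.59% of all genes tested), and 5 were lower in every older tumor (5.58%). Among these were the glucose transporter gene Slc2a1 and Hk2 (hexokinase), which also serve glucose use in most cells. Slc2a1 stood at 130, 135 and 80.7 CPM in the older tumors and at 658, 470 and 239 CPM in the younger tumors (log2 fold change -1.99 ± 0.42 SE, edgeR adjusted p = 0.271). B4galt1, the enzyme that Lalba turns toward glucose, overlapped between the groups (log2 fold change 0.74 ± 0.61 SE, edgeR adjusted p = 0.849).

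Of 12 tested genes for other secreted milk proteins 0 passed. Tf (transferrin) stood at 10331, 4099 and 5614 CPM in the older and at 2242, 17011 and 438 CPM in the younger tumors, so that, as for Csn1s1 and Csn3, tumor 158 was the highest and tumor 167 the lowest. Wfdc18, a small secreted protein with a core like that of Wap, ran against Glycam1 and was lower in every older tumor, at 0.343, 1.36 and 0.997 CPM against 11.6, 13.5 and 5.90 CPM (log2 fold change -3.43 ± 0.60 SE, edgeR adjusted p = 0.235). Pigr, which carries immunoglobulins into milk, was higher in every older tumor, at 160, 363 and 80.5 CPM against 20.9, 47.2 and 1.72 CPM (log2 fold change 3.10 ± 0.999 SE, edgeR adjusted p = 0.411). Among 5 tested mineral transport genes 0 passed, and the zinc transporter gene Slc30a4 was higher in every older tumor (log2 fold change 0.97 ± 0.34 SE, edgeR adjusted p = 0.457). On the same list Stc2 (stanniocalcin) was lower in every older tumor, at 5.14, 2.49 and 13.4 CPM against 66.4, 18.4 and 44.0 CPM (log2 fold change -2.59 ± 0.69 SE, edgeR adjusted p = 0.341). Among 4 genes of the casein kinase and Golgi list 0 passed, and Fam20a, the pseudokinase that activates Fam20c, was higher in every older tumor, at 490.2, 100.7 and 87.5 CPM against 18.0, 68.6 and 13.0 CPM (log2 fold change 2.76 ± 0.89 SE, edgeR adjusted p = 0.41). Furin, a Golgi protease on that list, was lower in every older tumor, at 305, 250.3 and 332 CPM against 483, 551 and 414 CPM (log2 fold change -0.71 ± 0.26 SE, edgeR adjusted p = 0.481).

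Of 16 tested genes of prolactin signaling 0 passed, and 3 had an unadjusted p under 0.05 (8.59% of all genes tested did), namely Prlr, Stat5b and Socs2. Socs2 overlapped between the groups, at 73.3 CPM in tumor 107 and between 4.14 and 7.92 CPM in the other tumors (log2 fold change 2.35 ± 0.97 SE, edgeR adjusted p = 0.559). Prlr, the receptor, stood at 118, 311 and 242 CPM in tumors 102, 107 and 116 and at 416, 284 and 868 CPM in tumors 157, 158 and 167 (log2 fold change -1.23 ± 0.51 SE, edgeR adjusted p = 0.568). Prlr was thus highest in tumor 167, where 7 of the 8 milk protein genes were lowest, and lowest in tumor 102. Elf5, the transcription factor of alveolar cells, ran the other way, at 699, 226 and 201 CPM in the older and 106, 556 and 40.8 CPM in the younger tumors (log2 fold change 0.68 ± 0.92 SE, edgeR adjusted p = 0.918). Stat5a stood at 198, 310 and 226 CPM in the older and at 132, 410 and 64.4 CPM in the younger tumors (log2 fold change 0.28 ± 0.61 SE, edgeR adjusted p = 0.954). Stat5b had a log2 fold change of 0.79 ± 0.33 (SE, edgeR adjusted p = 0.564), and Cish, a STAT5 target that dampens the pathway, of 0.87 ± 0.62 (SE, edgeR adjusted p = 0.811). The pathway's inhibitor gene Socs1 was higher (1.64 on the log2 scale, edgeR adjusted p = 0.695) and the kinase gene Jak2 lower (-0.35, edgeR adjusted p = 0.761) in every older tumor. Of 5 tested neighbors on the list of the casein cluster 0 passed. Jchain, which joins immunoglobulins in plasma cells, was higher in every older tumor, at 11.997, 3.85 and 20.9 CPM against 0.704, 3.06 and 0.491 CPM (log2 fold change 3.06 ± 0.86 SE, edgeR adjusted p = 0.342).

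**Figure D5:**
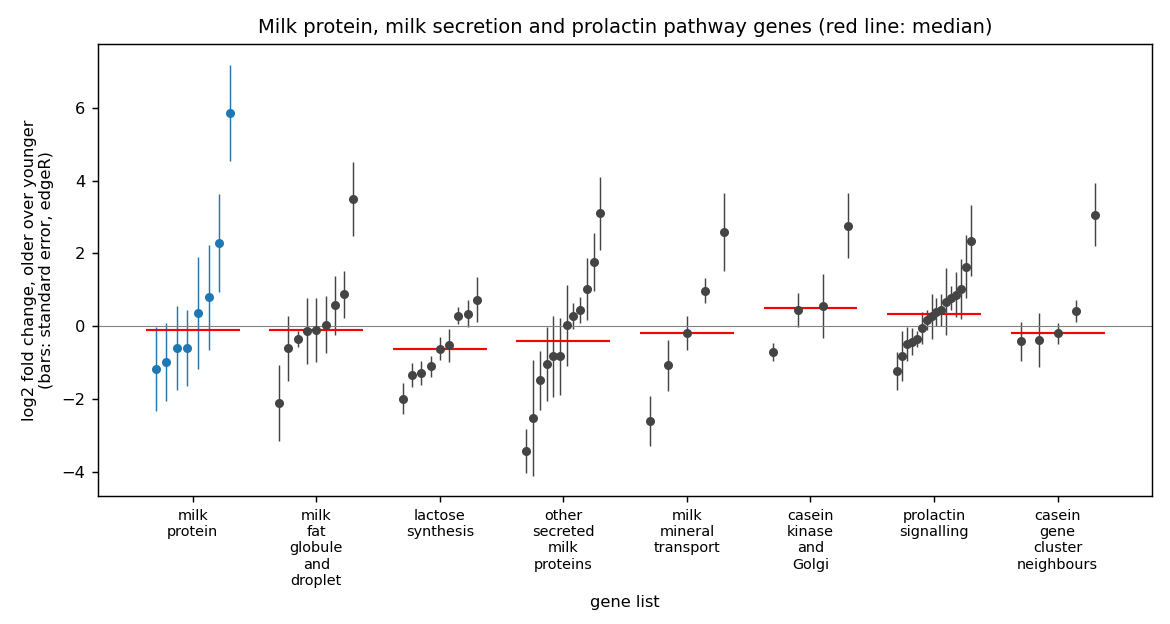
Log2 fold change, older over younger, of each tested gene in the milk protein list and the 7 lists of milk secretion and prolactin signaling, with bars of 1 standard error from edgeR and a red line at the median of each list. Glycam1 at 5.86 is the highest point, and the median of the lactose synthesis list, -0.61, is the lowest.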

How the data were processed

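Bulk RNA-seq was measured in 6 rat mammary tumors, 1 library each. Ribosomal RNA was depleted (the labels also state polyA RNA). The authors used FastQC, Trimmomatic, STAR, Picard to mark duplicates and HTSeq 0.13.5, with build mRatBN7.2 in the submitters' processing notes. They deposited raw read counts per gene. For differential expression they named DESeq2, whose version is not given in the sources used here. In this report edgeR was the main test and DESeq2 an alternative. The annotation, the strand setting and whether marked duplicates were counted are not given in the sources used here. Columns were matched to tumors by tumor number, and 0 columns were left unused.

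Rows without a gene name (4367 of 30562, 2.17% to 3.64% of the counts) were left out of library sizes and tests but stayed in the total behind shares of all counts. The tests were run in R 4.3.3, with edgeR 4.0.16 (filterByExpr, TMM, quasi-likelihood test, older against younger, no covariates, Benjamini-Hochberg adjustment over 13139 rows, threshold 0.05), limma 3.58.1 and DESeq2 1.42.0. Standard errors were calculated back from F. Log2 CPM used a prior count of 2. In the scaled libraries 3 counts correspond to between 0.528 and 1.03 CPM. The test was checked on simulated counts.

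The genes and lists were chosen with earlier results of these data known. Named were the 8 genes, genes of the lists, and the 10 genes with a mean of at least 10 CPM whose centered profile lay nearest to the mean of the 8 or to Csn2. Which list genes are printed was decided with values known. Alternatives were other scalings, filters and tests and leaving out each tumor. Each tumor is from a separate rat, and p-values set the difference between age groups against the spread between these tumors within a group. Other assays of these tumors were not used here. Of the lists, 1 gene is not reported here by name.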

Additional observations from a re-analysis of the deposited data

How the results depend on the processing

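No paired analysis was possible because each tumor is from another rat and no replicate number occurs in both age groups. With DESeq2's Wald test the count of milk protein genes past the threshold went from 0 to 1 (Glycam1, log2 fold change 5.86), that of all genes from 0 to 326 and that of the 60 milk secretion and prolactin genes from 0 to 9. All 3 counts stayed at 0 in the other settings run, limma-voom and the fits without 1 tumor included. With limma-voom the log2 fold changes of Csn1s1 (0.50), Csn1s2b (0.095) and Csn3 (0.53) turned positive. That fit averages log values, in which tumor 158 weighs less.

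Leaving out each tumor in turn gave median log2 fold changes of the milk protein genes between -0.78 and 2.28, and between 1 and 4 genes higher in every older tumor. By gene the values ran from -1.14 to 1.65 for Csn1s1, -0.91 to 2.93 for Csn1s2a, -1.73 to 1.76 for Csn1s2b, -1.13 to 1.43 for Csn3, -1.29 to 2.80 for Wap and -1.46 to 0.57 for Lalba. The sign turned without tumor 158 for Csn1s1, Csn1s2b, Csn3 and Lalba, without tumor 107 for Csn1s2a, and without tumor 102, 157 or 167 for Wap. Csn2 (1.71 to 4.09) and Glycam1 (4.33 to 6.41) stayed above 0. The difference in the summed share of counts ran from 0.973 to 8.09 percentage points, and that in log2 summed CPM (1.64 with all tumors) from 0.44 to 2.91. The number of gene pairs without overlap on log2 CPM with a prior count of 2 (10 with all tumors) ran from 10 to 14. Of all pairs of genes tested 13.8% did not overlap with all tumors, and that share is not given here for fewer tumors. Groups separate more often with fewer tumors. Of all genes tested, 6.51% were higher in every older tumor with all tumors and 13.2% without tumor 116. Scaling without the milk protein genes left their median at -0.11. The alternatives on the Csn2 to Csn1s1 ratio, on Glycam1 relative to the other genes, on gene pairs and on rows without a name were chosen after seeing the data. Depth limits Wap in tumor 167 and most lymph node markers, and 3 tumors per group limit every comparison. Few counts also lie behind Wfdc18 in the older tumors (0.343 to 1.36 CPM), Jchain in tumors 157 and 167 (0.704 and 0.491 CPM) and Socs1 in tumor 158 (0.540 CPM).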

Other observations

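Csn2 had its own nearest genes. By the same measure they were Pigr, C3, Acsl1, Slc28a3, Fabp3, Mroh3, Prr27, LOC120101643, F5 and LOC100911413, of which Slc28a3 and Prr27 were also among the nearest to the mean of the 8 genes. Complement C3 stood at 1286, 522 and 659 CPM in tumors 102, 107 and 116 and at 135, 247 and 8.36 CPM in tumors 157, 158 and 167 (log2 fold change 2.66 ± 0.99 SE, edgeR adjusted p = 0.496), with each older tumor above each younger one (6.51% of all genes tested were). Coagulation factor F5 stood at 179.96, 43.7 and 30.1 CPM in the older tumors and at 8.27, 19.3 and 2.21 CPM in the younger tumors (log2 fold change 3.07 ± 0.91 SE, edgeR adjusted p = 0.367). C3 and F5 were picked for profiles near that of Csn2, so their direction between age groups follows in part from that choice.

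Some genes of the lists did not pass the filter on low counts because few tumors carried them, and they were singled out after their values were seen. Slc30a2, the zinc transporter of milk vesicles, was at 65.1 CPM in tumor 102, which had the lowest Lalba and the highest Csn2, and at most 1.76 CPM in the other tumors. Tnfsf11 (RANKL), the progesterone-induced signal between luminal cells, was at 35.6 CPM in tumor 102 and 72.2 CPM in tumor 116, and at 0.905 CPM in tumor 107 and 0.528, 1.08 and 0.491 CPM in tumors 157, 158 and 167. Neither was tested.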
